A study of Mus musculus with 6 samples.

Results

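The vascular endothelial growth factor (VEGF) family was followed in stromal fibroblasts grown from the mouse mammary gland. Its 10 members were taken by gene symbol from the 23337 gene rows of the count tables: the 5 ligands Vegfa, Vegfb, Pgf, Vegfc and Figf, the 3 receptors Flt1, Kdr and Flt4, and the 2 co-receptors Nrp1 and Nrp2. Figf is the older symbol of Vegfd, which encodes VEGF-D. All 10 had a row, and all 10 passed the filter on low counts that left 13442 genes.

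RNA of 3 cultures homozygous for the cpdm allele of Sharpin and of 3 wild-type cultures was sequenced, all of strain C57BL/KaLawRij and from animals aged 7 weeks. The cpdm allele is a spontaneous mutation that leaves the animal without SHARPIN, an adaptor protein of the ligase that builds linear ubiquitin chains, which also holds integrins inactive. It is carried by every cell of the mouse, so differences between cultures can include those set in the animal before the cells were plated. Each culture came from the glands of 3 pooled mice and was harvested at confluence at passage 0. The spread between replicates takes in that between pools and anything shared by same-numbered cultures, which the labels do not name. The cultures were not sorted, and transcripts of other cell types of the gland were present in them, as given below.

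VEGF ligands are secreted proteins that act on receptor tyrosine kinases, which in most tissues are found mainly on endothelial cells. VEGF-A signals through KDR and is also bound by FLT1, which takes up VEGF-B and placental growth factor as well. VEGF-C and VEGF-D are the ligands of FLT4, the receptor best known for lymphatic vessel growth, and VEGF-C can also act on KDR once processed. The neuropilins NRP1 and NRP2 bind several of these ligands and also the class 3 semaphorins. Fibroblasts are known mostly as a source of the ligands.

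The sequences upstream of the genes that differed most are shown first, since the results turn on Figf among the ligands and on Flt1 and Kdr among the receptors. Each is the 250 bases before the RefSeq transcription start (GRCm38.p6), written 5′ to 3′ on the strand of the gene. Figf lies at chrX:164373272-164373521 on the plus strand, Flt1 at chr5:147726012-147726261 and Kdr at chr5:75978456-75978705, both on the minus strand. Capitals mark matches, on either strand, to 6 motifs, and no matches in these 3 windows overlap. One is the AP-1 motif TGANTCA. Another is the cyclic AMP response element TGACGTCA. The cores of hypoxia response elements were searched as ACGTG. Their other form was searched as GCGTG. The TATA box was searched as TATAAA. The last was a loose NF-kappaB pattern, with 4 unspecified bases after its first letters GGGA and a closing pair of C.
Figf: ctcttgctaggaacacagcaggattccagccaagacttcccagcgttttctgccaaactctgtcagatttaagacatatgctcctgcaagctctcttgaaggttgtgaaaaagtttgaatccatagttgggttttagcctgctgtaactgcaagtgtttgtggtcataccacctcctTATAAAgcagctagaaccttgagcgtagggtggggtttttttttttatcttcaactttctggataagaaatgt
Flt1: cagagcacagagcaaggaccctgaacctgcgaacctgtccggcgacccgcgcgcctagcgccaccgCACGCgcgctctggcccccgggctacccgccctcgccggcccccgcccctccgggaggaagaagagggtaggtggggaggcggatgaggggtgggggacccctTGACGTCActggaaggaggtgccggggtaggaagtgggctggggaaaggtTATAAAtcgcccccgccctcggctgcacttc
Kdr: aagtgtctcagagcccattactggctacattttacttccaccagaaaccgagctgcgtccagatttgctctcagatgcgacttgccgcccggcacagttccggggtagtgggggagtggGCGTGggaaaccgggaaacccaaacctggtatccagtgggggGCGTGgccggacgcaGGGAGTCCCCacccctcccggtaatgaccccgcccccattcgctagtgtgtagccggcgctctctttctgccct

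The Figf window held a single match, to the letters TATAAA, that begins 73 bases before the RefSeq start. Its GC content was 42.4%, against 70.4% for Flt1 and 61.6% for Kdr. A median of 52.4% was found over all 32851 windows of this length, of which 17.92% had a GC content at or below that of Figf. GENCODE places the start of the Figf gene 144 bases further upstream, inside this window, so that by GENCODE the match lies after the start. Flt1 had a TATA box 31 bases before the start and a cyclic AMP response element 81 bases before it, with a hypoxia core on the other strand, and Kdr had 2 hypoxia cores with first base G and 1 NF-kappaB pattern. Of all windows, 12.368% held the TATA box, 1.546% the cyclic AMP response element, 28.157% and 16.572% the hypoxia cores with first base G and A, 17.634% the NF-kappaB pattern and 6.749% the AP-1 motif. The window of Flt4 held 0 of the 6 motifs. A match describes the letters only.

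Of the 10 transcripts, Figf, Flt1, Kdr and Flt4 fell in Sharpin-cpdm cultures when each was compared with the wild-type culture of the same replicate number, and 0 rose. Pgf, Vegfa, Vegfb, Vegfc, Nrp1 and Nrp2 did not pass. These 4 calls come from edgeR's quasi-likelihood test with the replicate number as a block and Benjamini-Hochberg adjustment over all 13442 genes at a threshold of 0.05, where 2.11% of all tested genes fell and 0.394% rose. A gene is said below to have fallen only where this blocked test called it, and estimates and standard errors are from it unless another fit is named. In simulated data with paired libraries, this test made 23 false calls among 13442 genes, a larger share of its calls than the threshold allows. The main test, without the block, called 0 of the 10 members and 0.0% of all genes; 2 members (Flt1 and Kdr) and 307 genes had an unadjusted p under 0.05 in edgeR's test, and no member had an adjusted p under 0.999987. Unblocked DESeq2 and limma-voom also called 0 members, where they called 0.0744% and 0.0% of all genes. With the block they called 3 and 4 members, beside 2.54% and 2.82% of all genes. The median log2 fold change of the members was -0.25, beside -0.00168 over all tested genes.

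The calls rest on the match by replicate number and on the pairs used. Without pair 3, the same test called Figf and Flt1 only, beside 44 of 13465 genes, where it called 337 of 13442 genes with all pairs. Calls were thus fewer among all genes as well. Without pair 2 it called 128 of 13517 genes, and without pair 1 it called 673 of 13605. Groups did not overlap for 1 member, Flt1, with Sharpin-cpdm lower; that held for 2.59% of all tested genes, while 0 members and 3.35% of genes lay apart with Sharpin-cpdm higher. In 5 members (Figf, Flt1, Kdr, Flt4 and Pgf) the Sharpin-cpdm library was the lower one in all 3 pairs, as it was for 18.5% of all tested genes. In 0 members, and in 22.7% of genes, it was the higher one in all 3.

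**Figure D1:**
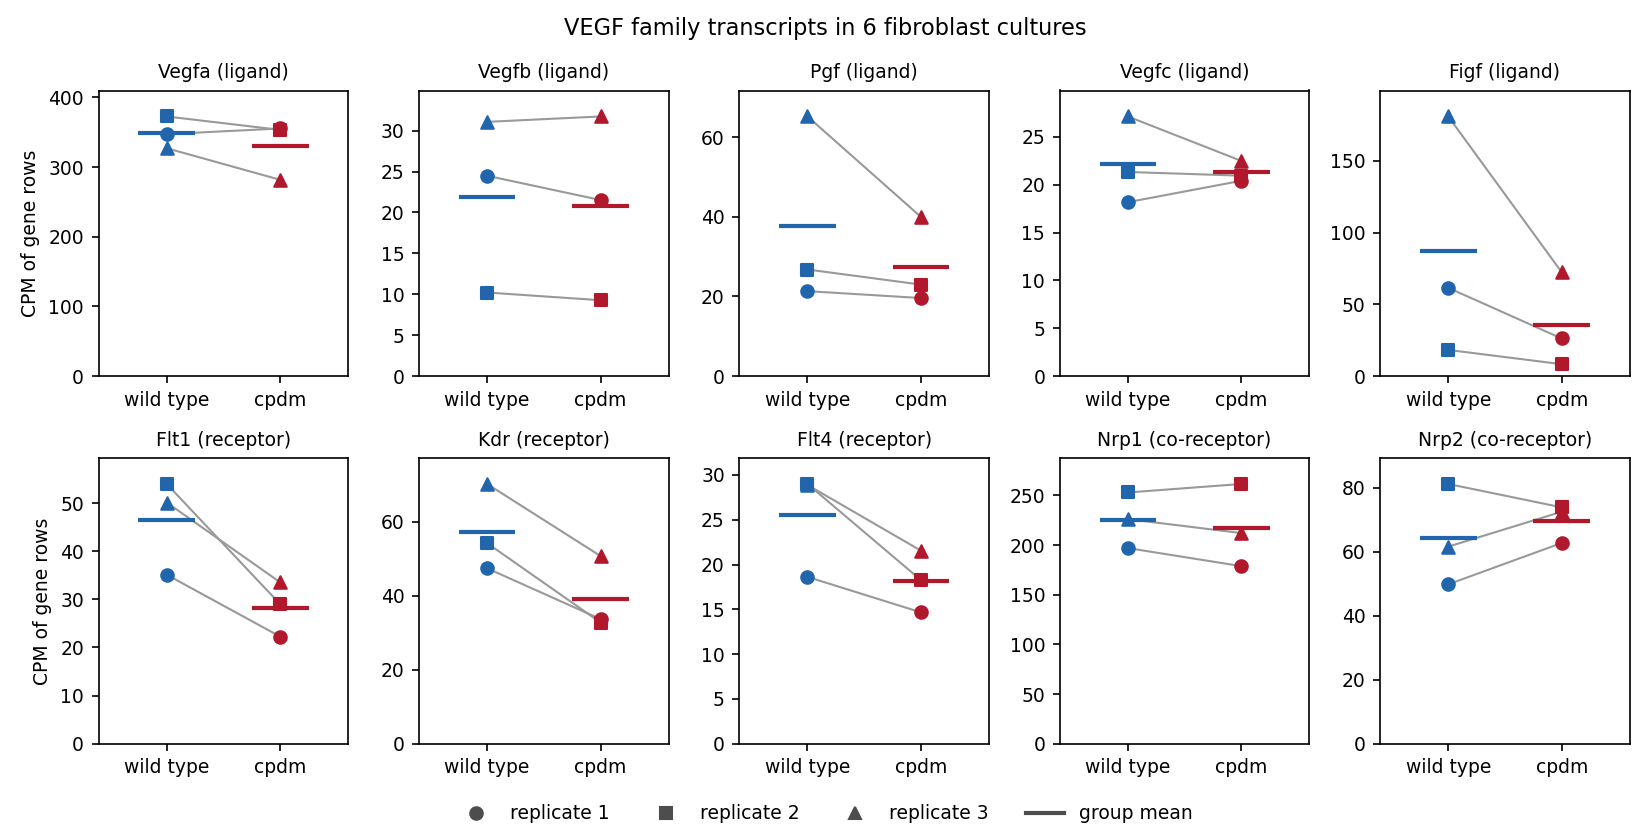
Levels of the 10 VEGF family transcripts in CPM, with 3 wild-type cultures (blue) and 3 Sharpin-cpdm cultures (red) in each panel, same-numbered libraries joined by lines and bars at the group means. All 3 lines go down for Figf, Flt1, Kdr, Flt4 and Pgf, and the Figf values of each group spread over more than 8 times, from 8.34 to 72.4 CPM in Sharpin-cpdm and from 18.3 to 181 CPM in wild type.

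Sharpin itself checked the labels. Here and below, values of a group are listed in the order of replicates 1, 2 and 3. The Sharpin transcript had 24.5, 25.2 and 31.2 CPM in wild type and 10.5, 9.13 and 9.50 CPM in Sharpin-cpdm, so the groups did not overlap (log2 fold change -1.48 ± 0.12, SE, n = 3 per group, blocked edgeR adjusted p 0.00595, unblocked 0.272). CPM are counts per 1000000 gene counts of a library. Depth was even, at 13570649 to 15656196 gene counts per library, and a member had between 115 and 5836 counts in a library.

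Among the ligands, Figf fell by more than any other member. Figf (chrX:164373378-164402650, plus strand) encodes a growth factor that is secreted by fibroblasts and was first described as induced by c-Fos. It had 61.5, 18.3 and 181 CPM in wild type and 26.2, 8.34 and 72.4 CPM in Sharpin-cpdm. Replicate 3 was the highest and replicate 2 the lowest in both groups, and the groups overlapped widely. The highest pool exceeded the lowest by 9.90-fold in wild type and by 8.68-fold in Sharpin-cpdm. Within pairs the values were much closer to each other: the Sharpin-cpdm library had 0.427, 0.456 and 0.400 of the wild-type level in pairs 1, 2 and 3. The log2 fold change was -1.27 ± 0.06 (SE, n = 3 pairs), with a 95% confidence interval of -1.42 to -1.12 and a blocked edgeR adjusted p of 0.00331. This was the smallest p but 1 of all 13442 genes. The unblocked estimate was -1.31 ± 0.97 (edgeR, adjusted p 0.999987). In a bulk culture, fewer cells that express a gene and less RNA per cell cannot be told apart.

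Figf was set beside the gene for the PDGF receptor alpha chain, Pdgfra, which marks mesenchymal fibroblasts. Pdgfra had 587, 238 and 1165 CPM in wild type and 523, 216 and 820 CPM in Sharpin-cpdm, with replicate 3 highest and replicate 2 lowest in both groups, as for Figf. It did not pass (log2 fold change -0.28 ± 0.09, blocked edgeR adjusted p 0.168). Per 100 CPM of Pdgfra there were 10.5, 7.68 and 15.5 CPM of Figf in wild type and 5.01, 3.86 and 8.83 CPM in Sharpin-cpdm. The Sharpin-cpdm level per Pdgfra was therefore 0.478, 0.502 and 0.569 of the wild-type level in pairs 1 to 3. A level per marker depends on the marker chosen, since of 12 fibroblast markers 4 fell and 8 did not pass. Dpp4, another of these markers, was at 0.313, 0.404 and 0.308 of the wild-type level in pairs 1 to 3, below Figf in each pair. Whether the mix of fibroblast types had a part in the difference was not tested.

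The other ligands did not pass. Like all intervals given here, theirs come from the blocked fit and its inferred pairing, and give the changes that fit leaves room for. Each is for a single gene and is not adjusted for the number of genes, so it can exclude 0 where the adjusted p does not pass. The intervals may also be too narrow, since this fit made more false calls in simulated data than its threshold allows. Vegfa, the principal driver of blood vessel growth (chr17:46016993-46032369, minus strand), had 347, 373 and 327 CPM in wild type and 356, 354 and 282 CPM in Sharpin-cpdm. Its values overlapped and its log2 fold change was -0.097 ± 0.062 (95% confidence interval -0.25 to 0.052, blocked edgeR adjusted p 0.485). Vegfc, the closest relative of Figf (chr8:54077606-54187096, plus strand), had 18.2, 21.3 and 27.1 CPM in wild type and 20.4, 20.9 and 22.5 CPM in Sharpin-cpdm. The Sharpin-cpdm values lay inside the range of the wild-type values. The log2 fold change of Vegfc was -0.064 ± 0.10 (95% confidence interval -0.32 to 0.19, blocked edgeR adjusted p 0.804), an interval that does not reach that of Figf, although the difference between the 2 genes was not tested.

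Vegfb, a ligand of FLT1 linked to fatty acid uptake and cell survival (chr19:6982473-6987651, minus strand), had 24.5, 10.2 and 31.1 CPM in wild type and 21.5, 9.28 and 31.7 CPM in Sharpin-cpdm. Like Figf it was highest in replicate 3 and lowest in replicate 2 of both groups. Its log2 fold change was -0.10 ± 0.079 with a blocked edgeR adjusted p of 0.558. Pgf, placental growth factor (chr12:85166635-85177790, minus strand), had 21.3, 26.8 and 65.2 CPM in wild type and 19.6, 23.0 and 40.0 CPM in Sharpin-cpdm. It was the lower one in Sharpin-cpdm in every pair, at 0.919, 0.859 and 0.613 of the wild-type level, most of the difference being in pair 3. The log2 fold change of Pgf was -0.40 ± 0.13 (95% confidence interval -0.70 to -0.090), with a blocked edgeR adjusted p of 0.186, and of 0.0491 when pair 1 was left out.

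**Figure D2:**
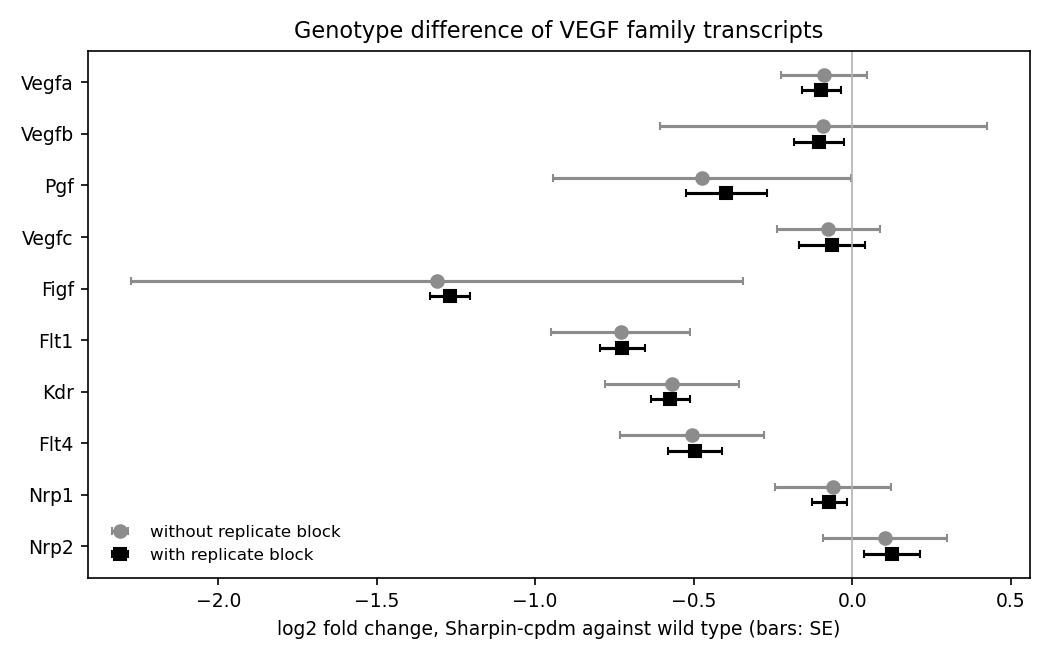
Log2 fold change of each VEGF family transcript, Sharpin-cpdm against wild type, with standard errors, from edgeR without the replicate block (grey circles) and with it (black squares). The estimates of a gene are close in both fits (-1.31 and -1.27 for Figf), while the standard error of Figf goes from 0.97 without the block to 0.06 with it.

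Levels of the ligands were compared per length, as CPM per kilobase of annotated exon. Vegfa was the most abundant ligand, with a mean of 79.3 ± 7.45 CPM per kilobase (SD over the 6 libraries), and ranged from 65.8 to 87.0. Figf followed with a mean of 25.4, but its range of 3.46 to 75.1 CPM per kilobase reached into that of Vegfa and covered those of Vegfb, Pgf and Vegfc, whose means were 13.3, 11.2 and 8.88. These 4 ligands did not differ in level beyond their spread. In terms of the summed level of the 5 ligands per length, Figf made up 18.7%, 6.38% and 36.7% in wild type and 8.90%, 3.20% and 21.7% in Sharpin-cpdm. Vegfa made up 59.3%, 73.2% and 37.4% in wild type and 67.8%, 76.2% and 47.5% in Sharpin-cpdm. The ratio of Figf to Vegfc, both ligands of FLT4, was 3.44, 0.871 and 6.78 in wild type and 1.31, 0.405 and 3.27 in Sharpin-cpdm per length.

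**Figure D3:**
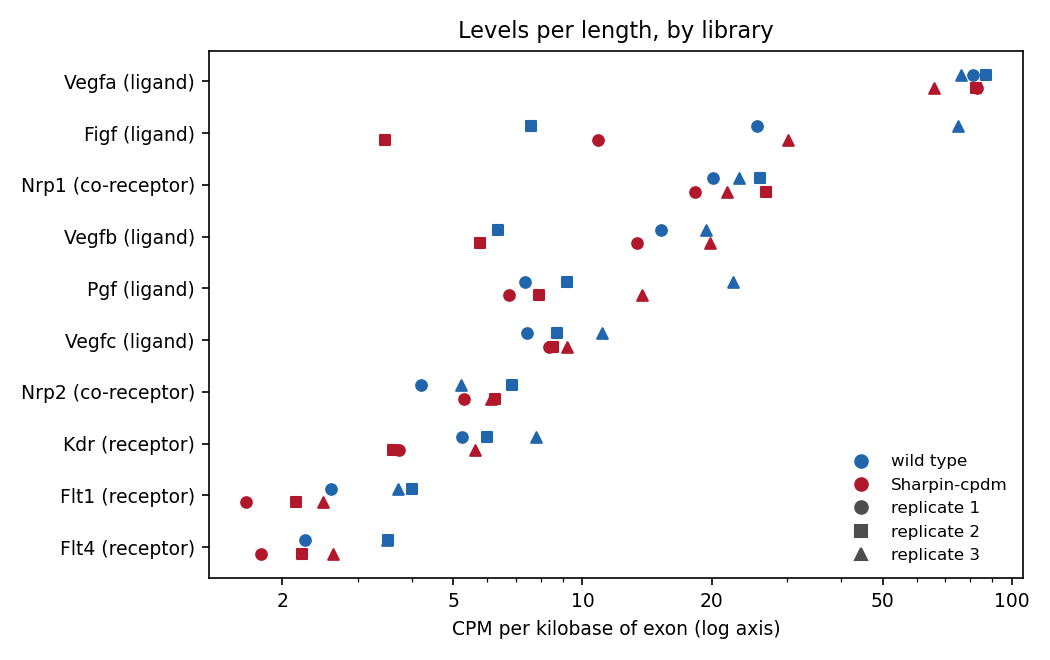
Level of each member in CPM per kilobase of exon (log axis), ordered by the mean over 6 libraries, with wild-type libraries in blue, Sharpin-cpdm libraries in red and the replicate number as the shape. Vegfa stands highest at 65.8 to 87.0, the receptors Flt1 and Flt4 lowest with means of 2.76 and 2.65, and Figf spans 3.46 to 75.1.

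All 3 receptors fell. Flt1, which encodes a receptor and a secreted decoy form of it (chr5:147561604-147726011, minus strand), had 35.1, 54.0 and 50.1 CPM in wild type and 22.3, 29.0 and 33.5 CPM in Sharpin-cpdm. Every wild-type value was above every Sharpin-cpdm value. The log2 fold change was -0.72 ± 0.07 (SE, n = 3 pairs), with a 95% confidence interval of -0.90 to -0.55 and a blocked edgeR adjusted p of 0.00925. Counts per gene do not separate the membrane-bound from the secreted form.

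Kdr, the main signalling receptor for VEGF-A (chr5:75932827-75978458, minus strand), had 47.4, 54.2 and 70.2 CPM in wild type and 33.7, 32.8 and 50.7 CPM in Sharpin-cpdm. Sharpin-cpdm library 3 lay above wild-type library 1, the single overlap. Within pairs the Sharpin-cpdm level was 0.710, 0.604 and 0.723 of the wild-type level. The log2 fold change of Kdr was -0.57 ± 0.06 (95% confidence interval -0.72 to -0.42) with a blocked edgeR adjusted p of 0.0110, and of 0.0658 without pair 3.

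Flt4, the receptor for VEGF-C and VEGF-D (chr11:49609263-49652739, plus strand), had 18.6, 29.0 and 28.9 CPM in wild type and 14.7, 18.3 and 21.6 CPM in Sharpin-cpdm. Wild-type library 1 lay among the Sharpin-cpdm values. The log2 fold change was -0.50 ± 0.09 (95% confidence interval -0.70 to -0.29) with a blocked edgeR adjusted p of 0.0436. This call was the least secure of the 4: the adjusted p was 0.200 without pair 2, 0.197 without pair 3, 0.0942 in DESeq2 with the block and 0.0642 with offsets for GC content and gene length. Per length, Kdr was the most abundant receptor in each library, with up to 2.26 times the level of Flt1. Flt1 and Flt4, with 2.76 ± 0.91 and 2.65 ± 0.72 CPM per kilobase (SD over 6 libraries), overlapped in range. Flt1 was the higher one in each wild-type library and Flt4 in each Sharpin-cpdm library. That order depends on the length used. Divided by the longest transcript in place of all exons, Flt1 was the higher one in every library, with means of 5.41 and 3.49 CPM per kilobase for Flt1 and Flt4.

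Endothelial markers fell in the same libraries. Of 25 blood endothelial markers, chosen without the receptors themselves, 20 fell and 0 rose (1 fell without pair 3 and 9 without pair 2), with a median log2 fold change of -0.82. No marker of the list was at 0, and their summed level was 957 to 1792 CPM in wild type and 719 to 1084 CPM in Sharpin-cpdm. Pecam1, an adhesion molecule of endothelial junctions, had 117, 192 and 236 CPM in wild type and 79.1, 97.5 and 129 CPM in Sharpin-cpdm. Cdh5, VE-cadherin, had 156, 258 and 311 CPM in wild type and 111, 142 and 198 CPM in Sharpin-cpdm. Their log2 fold changes were -0.82 ± 0.08 and -0.68 ± 0.07, with blocked edgeR adjusted p of 0.00920 and 0.0108. Gpr116, Tek and Cldn5, an adhesion G protein-coupled receptor, the angiopoietin receptor and a tight junction protein, had the smallest p of the list, with log2 fold changes of -0.83, -0.81 and -1.01.

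The receptors lay at the small end of this range. Of the 25 markers, 19 had a lower log2 fold change than Flt1, 21 a lower one than Kdr and 23 a lower one than Flt4. Per 100 CPM of summed endothelial markers, Flt1 had 3.67, 3.27 and 2.80 CPM in wild type and 3.10, 3.13 and 3.09 CPM in Sharpin-cpdm. Kdr had 4.95, 3.28 and 3.92 CPM in wild type and 4.69, 3.54 and 4.68 CPM in Sharpin-cpdm on that scale. Flt4 had 1.95, 1.75 and 1.61 CPM in wild type and 2.04, 1.97 and 1.99 CPM in Sharpin-cpdm, so that for Flt4 the order of the groups was turned round. The gap between the groups was narrow, from 1.95 to 1.97, at 199 to 454 Flt4 counts in a library. How many other genes lie apart on this scale was not tested. For Flt1 and Kdr the groups overlapped on this scale. Figf had 6.43, 1.11 and 10.1 CPM in wild type and 3.65, 0.901 and 6.67 CPM in Sharpin-cpdm per 100 CPM of endothelial markers, the lower one in Sharpin-cpdm in each pair.

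**Figure D4:**
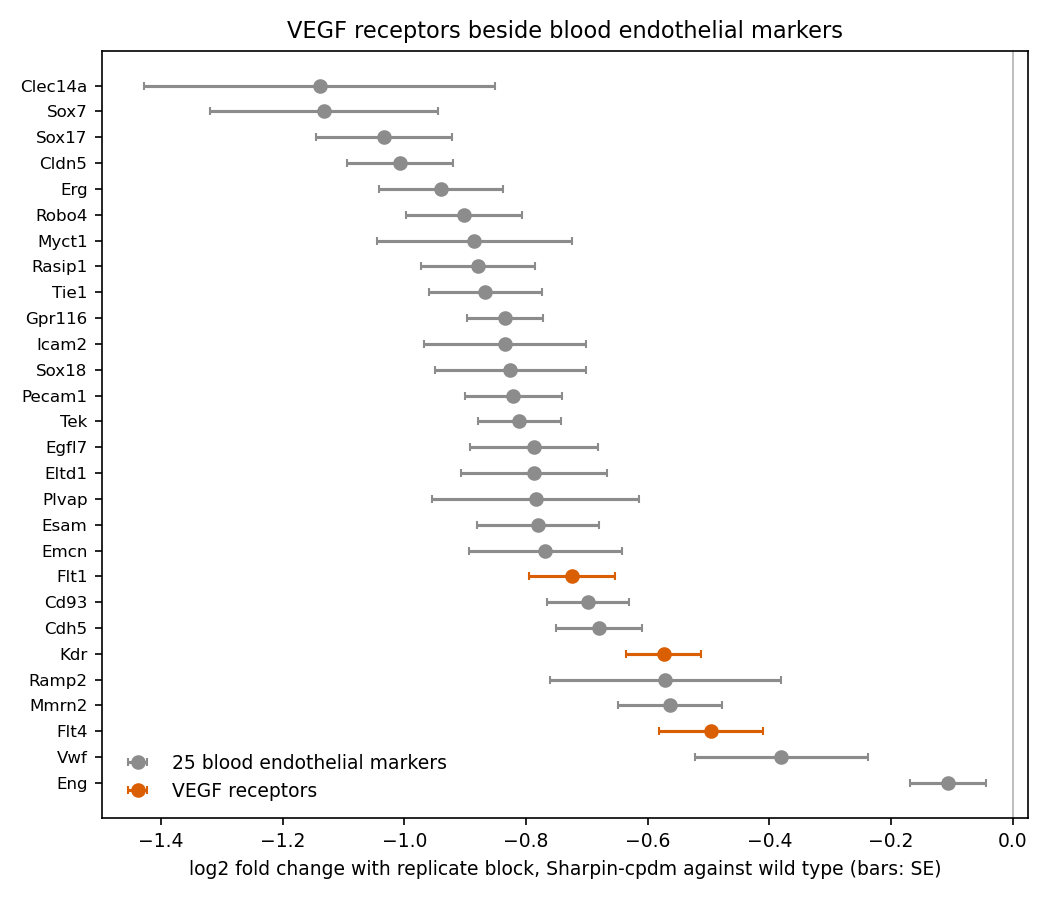
Log2 fold changes with standard errors, Sharpin-cpdm against wild type with the replicate block, for the 3 VEGF receptors (orange) and 25 blood endothelial markers (grey), in order of size. The receptors stand at -0.72 (Flt1), -0.57 (Kdr) and -0.50 (Flt4), among the markers with the smaller differences, where the median marker is at -0.82.

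**Figure D5:**
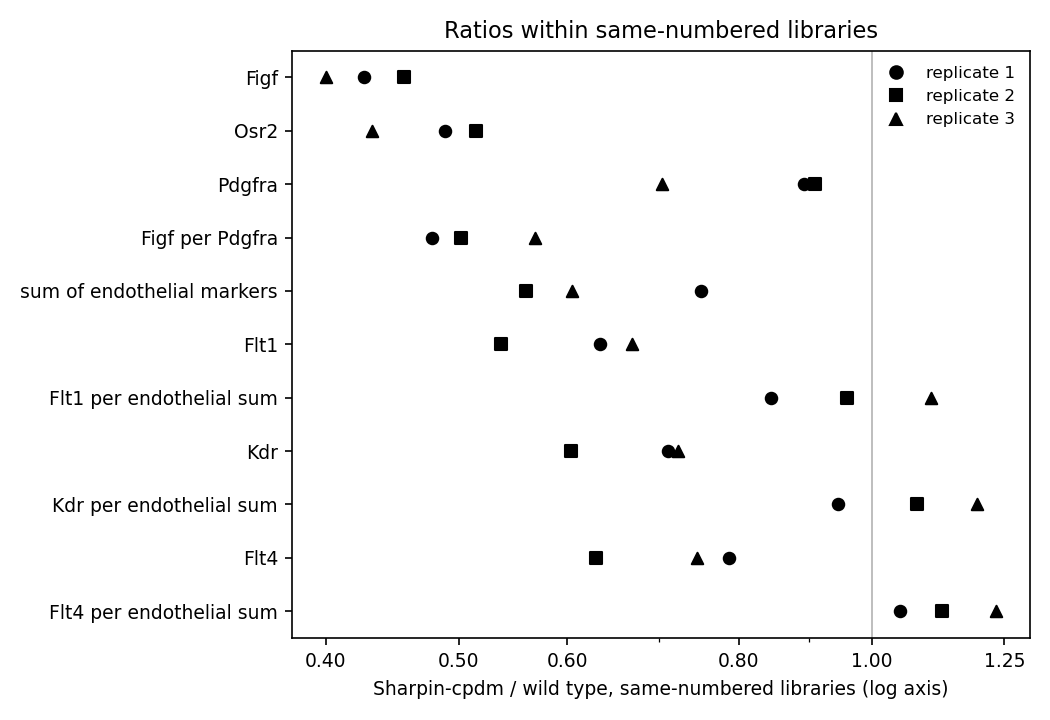
Ratio of the Sharpin-cpdm to the wild-type library within each replicate number (log axis, a line at 1) for Figf, Flt1, Kdr and Flt4, for marker genes, and for the members relative to a marker. Figf lies between 0.400 and 0.456, and between 0.478 and 0.569 per Pdgfra. Flt1, Kdr and Flt4 per summed endothelial markers lie between 0.844 and 1.23. The scales are not alike: 20 of the 25 endothelial markers fell, while Pdgfra is a single marker that did not pass.

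Neither co-receptor passed. Nrp1, a co-receptor for VEGF-A and for semaphorins that fibroblasts also express (chr8:128358604-128503363, plus strand), had 197, 253 and 226 CPM in wild type and 179, 262 and 212 CPM in Sharpin-cpdm. Its log2 fold change was -0.072 ± 0.055 (95% confidence interval -0.21 to 0.061, blocked edgeR adjusted p 0.565). Nrp2, which binds VEGF-C and VEGF-D (chr1:62703285-62818695, plus strand), had 49.8, 81.2 and 61.6 CPM in wild type and 62.8, 73.9 and 72.6 CPM in Sharpin-cpdm. It was the only member with an estimate above 0, at 0.13 ± 0.087 (95% confidence interval -0.084 to 0.34, blocked edgeR adjusted p 0.521), and the Sharpin-cpdm values lay inside the wild-type range. The annotated genes Gm29083 (antisense) and Gm37121 overlap Nrp2 but not its exons, and a microRNA gene overlaps an exon of Nrp1. The counting was not stated to use strand, and the library kit keeps no strand information. Per length, Nrp1 had a mean of 22.6 ± 3.27 CPM per kilobase and Nrp2 one of 5.66 ± 0.94 (SD over 6 libraries). The ranges of Nrp2 and of Kdr, at 5.33 ± 1.55, overlapped. Nrp2 was above Kdr in each Sharpin-cpdm library and in wild-type library 2, and below it in wild-type libraries 1 and 3. Nrp1 and Figf did not differ beyond their spread. Divided by the longest transcript in place of all exons, Nrp1 had 60.7 and Figf 29.9 CPM per kilobase, which puts Nrp1 above Figf in the order of levels.

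The class 3 semaphorins and plexins, the other ligands and partners of the neuropilins, were a list in which 4 of 13 tested genes fell and 0 rose. Sema3g, made by endothelial cells, had 18.8, 23.8 and 36.4 CPM in wild type and 13.3, 11.2 and 22.8 CPM in Sharpin-cpdm, with a log2 fold change of -0.76 ± 0.11. Sema3f, an NRP2 ligand that counters VEGF, had a log2 fold change of -0.62 ± 0.09. Sema3a, an NRP1 ligand, had one of -0.57 ± 0.09, and its groups did not overlap, at no less than 17.1 CPM in wild type and no more than 16.7 CPM in Sharpin-cpdm. The adjusted p-values of Sema3g, Sema3f and Sema3a were 0.0279, 0.0273 and 0.0296 (blocked edgeR). Plxnd1, an endothelial plexin, was the fourth, at -0.34 ± 0.06. The median of the 13 was -0.23, and 0 of the 4 calls were made without pair 2 or without pair 3.

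Of 7 tested genes that cleave VEGF-C and VEGF-D or help to do so, 0 passed and the median log2 fold change was 0.042, while DESeq2 with the block called 1 lower. Pcsk5, which encodes a proprotein convertase and was chosen after its values were seen, stood at -0.34 ± 0.068 (blocked edgeR adjusted p 0.0641). The most abundant, the lysosomal protease gene Ctsd, had 921 to 1315 CPM in wild type and 1063 to 1430 CPM in Sharpin-cpdm. Of 25 tested genes that relay receptor signals, Nos3, the endothelial nitric oxide synthase, alone fell (log2 fold change -0.86 ± 0.10, blocked edgeR adjusted p 0.0138, and 0.0638 and 0.0945 without pairs 2 and 3). The median of that list was -0.00499.

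Oxygen sensing controls Vegfa in many cells. Of 8 tested genes for hypoxia-inducible factors and their regulators 0 passed, with a median log2 fold change of -0.047, while DESeq2 with the block called 1 lower. Epas1, which encodes another alpha subunit of these factors and was chosen after its values were seen, stood at -0.45 ± 0.12 (blocked edgeR adjusted p 0.134). Hif1a, the most abundant, had 359 to 683 CPM in wild type and 301 to 631 CPM in Sharpin-cpdm. Of 15 hypoxia target genes 1 fell: Adm, which encodes the vasodilator adrenomedullin, at -0.94 ± 0.12 with a blocked edgeR adjusted p of 0.0209. Adm had 75.8, 22.4 and 185 CPM in wild type and 45.0, 14.4 and 79.4 CPM in Sharpin-cpdm, and so shared with Figf the order of the replicates in both groups. The median of the 15 was -0.02. Of 21 other angiogenic factors and inhibitors 1 fell, Aplnr, the receptor of the peptide apelin, at -1.39 ± 0.19 with a blocked edgeR adjusted p of 0.0234 (0.136 without pair 2 and 0.105 without pair 3), and the list had a median of -0.19. In this list DESeq2 with the block called 3 genes lower and 2 higher, and limma-voom with the block called 2 lower.

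Lymphatic endothelial markers were low. Prox1, the transcription factor that defines these cells, had 1.72 to 4.43 CPM in wild type and 1.96 to 4.28 CPM in Sharpin-cpdm, and Lyve1, a hyaluronan receptor, 0.319 to 3.87 and 0.290 to 3.48 CPM. Of 9 such markers 8 were tested and 0 passed, 1 had no count in any library, and several, such as Pdpn at 68.0 to 254 CPM, are also expressed by fibroblasts. DESeq2 with the block called 1 of the 8 higher. Their median log2 fold change was -0.087, and their sum was 268 to 400 CPM in wild type and 264 to 406 CPM in Sharpin-cpdm.

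Of the other cell types, 3 of 10 pericyte and mural markers fell: Notch3, Mcam and Abcc9, at -0.45, -0.43 and -0.59 (blocked edgeR adjusted p 0.132, 0.107 and 0.110 without pair 3, and for Mcam and Abcc9 0.105 and 0.0555 without pair 2). Acta2, smooth muscle actin, chosen after its values were seen, lay in the other direction at 0.38 ± 0.071 (blocked edgeR adjusted p 0.0511), and DESeq2 and limma-voom with the block each called 1 marker of the list higher and 3 lower. The summed level of that list overlapped between groups, at 3504 to 7072 CPM in wild type and 4119 to 7564 CPM in Sharpin-cpdm. Of 12 fibroblast markers, Dpp4, Lum, Fap and Dcn fell (Dcn was named after its values were seen), the first 3 at -1.59, -0.71 and -0.35 (Fap had a blocked edgeR adjusted p of 0.0719 without pair 2 and 0.140 without pair 3). DESeq2 with the block called 5 fibroblast markers lower and 1 higher, and blocked edgeR called 2 without pair 2 and 3 without pair 3. The summed level was 67628 to 87176 CPM in wild type and 67083 to 79339 CPM in Sharpin-cpdm. None of 8 tested macrophage and leukocyte markers passed in the blocked edgeR test (summed level 69.6 to 389 CPM in wild type and 131 to 331 CPM in Sharpin-cpdm), with Ptprc at 0.737 to 4.85 CPM and Lyz2 at 46.3 to 295 CPM over all libraries. None of 7 tested mammary epithelial markers passed in it, though 6 were called lower without pair 1 (summed level 258 to 481 CPM in wild type and 162 to 370 CPM in Sharpin-cpdm), with Epcam at 17.3 to 56.7 CPM and Krt18 at 44.2 to 127 CPM. Of the 2 tested adipocyte markers, Fabp4, which capillary endothelial cells also express, fell by 0.93 on the log2 scale, and Adipoq had at most 0.201 CPM (list sums of 46.4 to 95.8 and 29.4 to 49.5 CPM). The part of these markers in the differences of the VEGF family was not tested.

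For each member the genes with the most similar pattern over the 6 libraries were found among 10371 candidates with a mean of at least 5 CPM, by Pearson's r of log2 CPM. With so many candidates and 6 points the highest r is close to 1 for any gene: it lay between 0.988 and 0.999 over the 10 members, and it is a description. Figf was nearest to Osr2, an odd-skipped transcription factor gene of mesenchymal cells (r = 0.999), then Cda and Sash1. Osr2 had 24.3, 7.60 and 64.1 CPM in wild type and 11.9, 3.91 and 27.7 CPM in Sharpin-cpdm. Figf per 100 CPM of Osr2 was 213 to 282 in all 6 libraries, a narrow range that follows from choosing the most similar gene. Within pairs, that ratio in Sharpin-cpdm was 0.872, 0.886 and 0.926 of the wild-type one. Osr2 also fell, with a log2 fold change of -1.12 ± 0.09 (blocked edgeR adjusted p 0.00595, and 0.0691 without pair 3). Flt1 was nearest to Dusp7, Tie1 and Hlx. Flt4 was nearest to Vash1, Plxnd1 and Tie1, of which Vash1 encodes an angiogenesis inhibitor made by endothelial cells and Tie1 an endothelial receptor that fell by 0.87 on the log2 scale (blocked edgeR adjusted p 0.0110, and 0.0786 without pair 3). Kdr was nearest to Pter, Sept4 and Ldb2. The nearest genes were Lats1, Spon2 and Expi for Vegfa, Gna13, Flot1 and Aak1 for Vegfb, Hoxc10, Zswim3 and Pigh for Pgf, and Pcdhb16, Pisd-ps1 and Higd2a for Vegfc. They were Wtip, Fam174a and Mrpl35 for Nrp1, and Cars2, Rpl15 and Lyz2 for Nrp2.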

How the data were processed

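Per the labels' protocols, the kit was TruSeq RNA v2, which keeps no strand information. The tools listed in the submitters' processing notes are HTSeq 0.5.4p3, TopHat2 2.0.10 and bcl2fastq 1.8.4, and the build is mm10; annotation and counting settings are not given in the sources used here. For each library, raw counts per gene symbol were deposited as 1 table. Its 5 summary rows, 48.8% to 51.2% of all entries, were left out of library sizes and tests.

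Tests were run in R 4.3.3, using edgeR 4.0.16 (filterByExpr, TMM, quasi-likelihood F-test, two-sided, Benjamini-Hochberg), limma 3.58.1 and DESeq2 1.42.0. CPM divides by the gene counts of a library, and lengths and positions are from GENCODE M21. Each standard error was obtained from the estimate and the root of its F statistic, and intervals use edgeR's moderated degrees of freedom. The fits were tested on simulated data with paired libraries, where the fit without the block made no false calls and missed most small changes, and the fit with the block recovered more of them but made a larger share of false calls than its threshold allows. Alternatives were other scalings, no low-count filter, DESeq2, limma-voom, offsets for GC content and length, and leaving out each library or pair.

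The groups share replicate numbers 1 to 3, whose meaning the labels do not give. Deviations from the group means correlated across genes at 0.457, 0.809 and 0.737 for same-numbered libraries and at -0.691 to 0.00676 for the others, so same-numbered libraries were treated as pairs, on the evidence of the counts and not of the design. Because the deviations of a group sum to 0, positive values for same-numbered libraries force the others to be negative on balance. The values of the others are therefore no separate evidence for the pairing. The labels describe the libraries as separate samples but not how the pools were kept apart. Without the block, p-values therefore measure the spread between these samples. With the block, they measure only the spread left once the replicate number is accounted for. Libraries of a group differed beyond sampling noise (chi-square per degree of freedom 16.9 to 85.2). Members and gene lists were chosen with earlier results of these data known. Named were all members, Sharpin, up to 3 called genes of each list with the smallest p or else its most abundant tested gene, the defining cell type markers, and the 3 genes nearest to each member; Dcn, Pcsk5, Epas1 and Acta2 were chosen after their values were seen.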

Additional observations from a re-analysis of the deposited data

How the results depend on the processing

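Without the replicate block, edgeR called 0 genes and 0 members under either other scaling, without the low-count filter and without any single library; DESeq2 called 10 genes and limma-voom 0, with 0 members in both. With the replicate block, 337 genes and 4 members were called by edgeR, 341 and 3 by DESeq2 and 379 and 4 by limma-voom. The block gave 336 and 4 with DESeq2's size factors, 365 and 4 with total counts, 502 and 4 without the filter, and 447 and 3 with offsets for GC content and gene length, where higher calls went from 53 to 155 and lower calls from 284 to 292, so that 65.3% in place of 84.3% of calls were lower. Leaving out pair 1, 2 or 3 from the fit with the block, which leaves fewer samples, gave 673, 128 and 44 genes and 5, 3 and 2 members. Figf and Flt1 were called in all 10 fits with the block, Kdr in 9, Flt4 in 6 and Pgf in 1. Leaving out 1 library without the block moved Figf between -2.33 and -0.18, and estimates that changed sign ranged from -0.17 to 0.027 for Vegfa, -0.51 to 0.25 for Vegfb, -0.82 to 0.17 for Pgf, -0.21 to 0.093 for Vegfc, -0.25 to 0.071 for Nrp1 and -0.057 to 0.33 for Nrp2. Vegfc was 0.070 with the block and without pair 3. The cause was not tested. Counts for the gene lists were recomputed as an alternative chosen after seeing the data: with DESeq2 and the block they went from 0 to 1 for ligand processing, oxygen sensing and lymphatic markers, from 1 to 5 for other angiogenic factors, from 3 to 4 for pericyte, from 4 to 6 for fibroblast and from 20 to 21 for blood endothelial markers, and from 4 to 3 for semaphorins and plexins.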
